A study of Mus musculus with 4 samples.

Results

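Lipid synthesis, lipid uptake and fat cell genes were examined in mouse molar teeth as a group of 10 genes, namely Scd1, Scd2, Fasn, Elovl6, Srebf1, Lpl, Fabp4, Fabp5, Pparg and Adipoq. Members were the probe sets that the platform annotation assigns to exactly 1 of these symbols, which gave 20 probe sets for the 10 genes, among 34958 probe sets that name a single gene and 18194 genes in all. Each gene had between 1 and 4 probe sets. RNA came from molars pulled by hand from 60 Swiss-Webster pups of both sexes, aged 1 to 10 days after birth, and combined into 1 pool that was hybridised to 4 Affymetrix mouse expression arrays. The animals carried no engineered allele or treatment that the labels name, and all 4 arrays form 1 group, so the comparison open to these data is of each gene with the background of the same arrays. The pool mixes the ages and all cell types that came away with the teeth, and in such bulk RNA fewer cells of a type and less RNA per cell cannot be told apart. The arrays share 1 pool, so every SD is over technical repeats and every p-value measures technical spread only.

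Long-chain fatty acids are built in the cytosol from citrate-derived acetyl units by ATP citrate lyase, acetyl-CoA carboxylase and fatty acid synthase, and are then lengthened by Elovl enzymes and given a double bond by stearoyl-CoA desaturases. The transcription factors SREBP1 and SREBP2, made by Srebf1 and Srebf2, raise the expression of these enzymes and of sterol synthesis. Cells can also take fatty acids from blood, where lipoprotein lipase releases them at the vessel wall and small fatty acid binding proteins (Fabp) carry them inside the cell. Fat cells express the nuclear receptor gene Pparg and the hormone gene Adipoq, whereas growing epithelia and secretory cells make fatty acids for membranes without storing fat.

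The deposited values are signals on a linear scale from MAS5, the Affymetrix summary of matched and mismatched probes. Brightness depends on each probe set's affinity, so levels were set against background and not against each other. Background on an array was the 95th percentile of 86 probe sets for olfactory, vomeronasal and taste receptor genes, and came to 996, 1097, 1295 and 1266 signal units on arrays 1 to 4 (1163 ± 142, SD, n = 4). A gene was called above background when 1 of its probe sets exceeded this threshold on all 4 arrays. The arrays had a common trimmed mean, and Pearson's r of log2 signal across the 14846 probe sets above background, which are not independent replicates, was 0.968 to 0.979 for the 6 array pairs. The label of molar teeth was checked with a tooth identity list. Of its genes, 8 of 8 were above background, beside 51.6% of all genes. Among them were Amelx (amelogenin), at 169 times the threshold, and Dspp (dentin sialophosphoprotein), at 95.1 times.

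Of the 10 lipid genes, 8 were above background (80.0%), beside 51.6% of all genes by the same rule. These were Scd1, Scd2, Fasn, Elovl6, Srebf1, Lpl, Fabp4 and Fabp5. The 2 genes not above background were Pparg and Adipoq, which, like Fabp4, are on the fat cell marker list described below. The median log2 signal of the 10 genes was 12.79, beside 10.69 over all genes, each gene taken at its probe set of highest mean signal. By the median of a gene's probe sets these values were 11.71 and 9.90, and probe affinity enters both. Of the 20 probe sets, 13 were above background on all 4 arrays. The limma test of log2 signal over threshold (one-sided, with Benjamini-Hochberg adjustment over all genes) called the same number of members, 8 of 10, beside 51.1% of all genes.

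**Figure D1:**
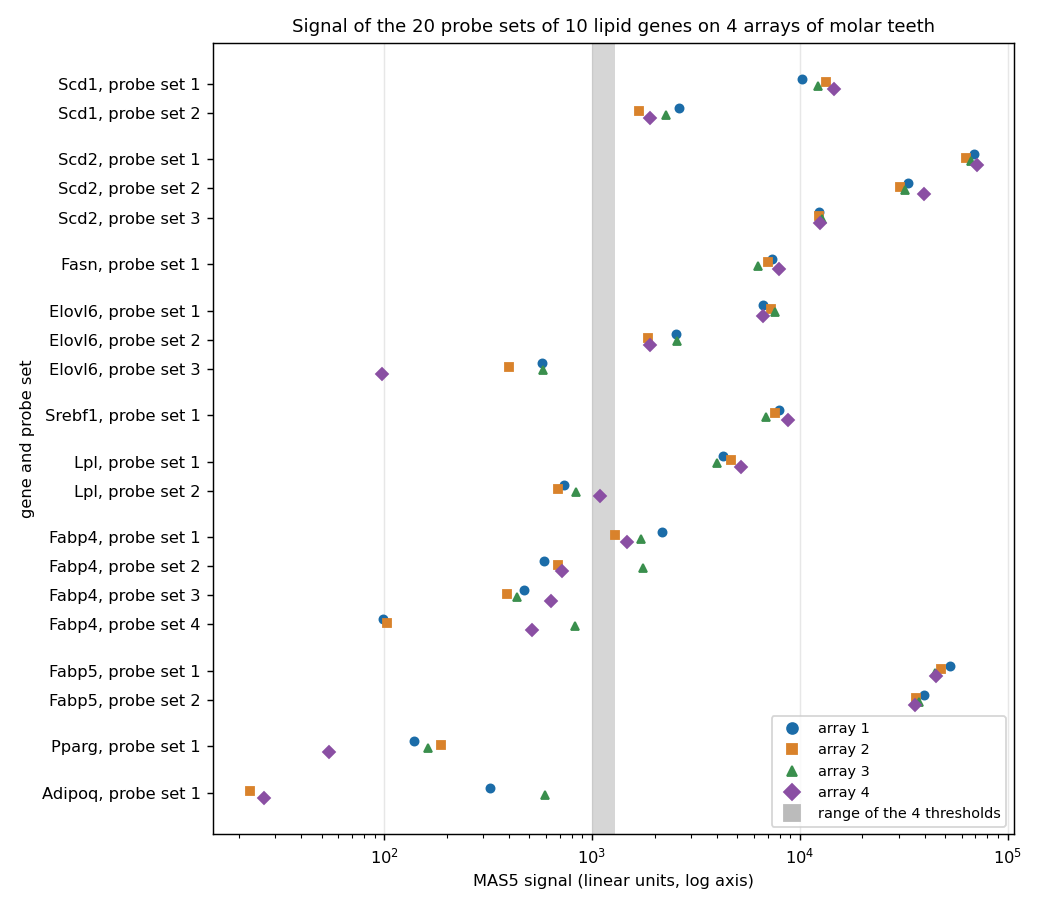
Signal of each of the 20 lipid probe sets on the 4 arrays of molar teeth, on a log axis in linear MAS5 units. Points are single arrays, the grey band spans the thresholds of the 4 arrays (996 to 1295), and probe sets of a gene are numbered from highest to lowest mean signal. Scd2 and Fabp5 lie far to the right of the band, and Pparg and Adipoq lie to its left on every array. The brightest Fabp4 probe set (1286 to 2173) lies at its right edge and beyond. Of the 12 values of the 3 other Fabp4 probe sets, 1 exceeds the threshold of its array.

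Scd1 and Scd2 encode stearoyl-CoA desaturases, which put the double bond into stearate and palmitate. Scd2, the form known from brain and from neonatal skin, had signals of 68649, 63245, 66905 and 71399 on arrays 1 to 4 (67549.5 ± 3414, SD, n = 4). All 4 arrays were at least 51.7 times the threshold of the same array, and the geometric mean was 58.3 times (limma adjusted p = 1.42e-20). With an array left out, the log2 ratio to the threshold stayed at 5.79 to 5.92. The limma adjusted p, however, was 1.86e-15 without array 3 and 1.26e-201 without array 2. The size of such small p-values, here and below, thus depends on the arrays used and is not a measure of signal strength. The other Scd2 probe sets had 33803 ± 3965 and 12506 ± 244 and were also above background on all 4 arrays.

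Scd1, the main form of adult liver, fat and sebaceous gland, had signals of 10300.3, 13299.5, 12178 and 14559 (12584 ± 1807). Every array was at least 9.40 times the threshold of the same array, and the geometric mean was 10.8 times (adjusted p = 1.39e-18). The other Scd1 probe set was dimmer, at 2617, 1690.5, 2271 and 1897, and exceeded the threshold on all 4 arrays by 1.50 to 2.63 times. Array 1 was the lowest array for the brighter Scd1 probe set and the highest for the dimmer one. Scd3, the form known from sebaceous gland, had 2 probe sets and was not above background, with 1033 ± 34.7 for the brighter one, over the threshold on 1 array. Both desaturases of the group were thus above background by all of their probe sets, 5 in number, and their relative Scd3 by 0 of 2.

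Fasn encodes fatty acid synthase, which builds palmitate. Its single probe set had signals of 7379, 7057, 6303 and 7929 (7167 ± 679), all of them 4.87 to 7.41 times the threshold (adjusted p = 1.24e-15). Elovl6, which lengthens palmitate to stearate, had 6632, 7296, 7582 and 6653 (7041 ± 474), or 6.08 times the threshold (adjusted p = 6.06e-16). Synthesis, lengthening and desaturation were thus each represented by a member above background on every array. Elovl6 had 2 further probe sets, of which 1 was above background at 2223 ± 391 and 1 was not at 412 ± 225. The dim one was at 572, 399.9, 579 and 97.6, below the threshold on all 4 arrays.

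Srebf1 encodes SREBP1, whose targets include Fasn, Elovl6 and the desaturases. Its only probe set had signals of 7905, 7619.6, 6914 and 8817 (7814 ± 788), or 6.73 times the threshold (adjusted p = 3.60e-16). The suffix of that probe set marks transcripts of the same gene, so the 1a and 1c forms of SREBP1, which start at different promoters, are not told apart. On all 4 arrays the signal was at least 5.34 times the threshold. Fasn, Srebf1 and Lpl each had their lowest signal on array 3 and their highest on array 4, unlike the other members at their brightest probe sets. The members' median log2 signal was lowest on array 3 (12.69) and highest on array 4 (12.83). That median is set by the middle genes, Fasn among them on both arrays, so it is not a separate observation. Outside the group, at the brightest probe sets, Acly, Tecr, Hacd3, Plin2, Lpin2 and Gpam had the same lowest and highest arrays. Acaca, Slc25a1, Me1 and Fads1 did not, and the share of all genes with this order was not counted. The arrays are technical repeats of 1 pool, so such an order reflects technical spread, and shared control of these genes was not tested.

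The promoter sequences of Fasn and Srebf1 are shown because SREBP1 is known to act with the factor NF-Y, which binds CCAAT boxes, and that of Adipoq because its gene was not above background. They are the 250 bases before a RefSeq transcript start, 5′ to 3′ on the gene's strand, in build GRCm38.p6, at chr11:120824548-120824797 (minus strand) for Fasn, chr11:60210472-60210721 (minus strand, the most downstream of 3 listed starts) for Srebf1 and chr16:23146286-23146535 (plus strand) for Adipoq. Capitals mark TCACCC, the core of a sterol regulatory element, and CCAAT, each searched on both strands, so that GGGTGA and ATTGG are marked too.
Fasn: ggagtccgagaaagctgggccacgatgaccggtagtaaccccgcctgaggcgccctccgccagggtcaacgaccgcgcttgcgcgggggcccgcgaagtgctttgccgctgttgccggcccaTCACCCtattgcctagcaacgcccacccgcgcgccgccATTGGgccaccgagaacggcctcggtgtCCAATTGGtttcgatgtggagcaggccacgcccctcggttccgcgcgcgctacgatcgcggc
Srebf1: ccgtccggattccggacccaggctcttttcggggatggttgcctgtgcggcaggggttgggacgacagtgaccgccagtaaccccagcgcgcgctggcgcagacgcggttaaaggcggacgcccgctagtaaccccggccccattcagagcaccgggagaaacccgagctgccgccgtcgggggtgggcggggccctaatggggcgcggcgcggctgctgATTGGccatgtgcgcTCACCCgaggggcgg
Adipoq: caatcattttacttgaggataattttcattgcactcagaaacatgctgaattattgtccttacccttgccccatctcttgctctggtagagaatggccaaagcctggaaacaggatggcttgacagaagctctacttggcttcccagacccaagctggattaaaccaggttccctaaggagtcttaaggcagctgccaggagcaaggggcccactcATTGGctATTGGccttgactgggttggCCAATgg
The Fasn window held 1 TCACCC and 3 CCAAT matches, of which 2 overlap in one run of capitals. The Srebf1 window held 1 of each, placed 15 bases apart by their first letters, and the Adipoq window held 3 CCAAT matches and 0 TCACCC matches. Among 32851 promoter windows of this length, 13.8% held TCACCC, 33.8% held CCAAT and 4.26% held both. Windows were listed for 5 of the 10 genes (9 windows for Fasn, Elovl6, Srebf1, Pparg and Adipoq). The Elovl6 window held 0 matches of either, the 2 other Srebf1 windows held 0 and 1 CCAAT matches, and of the 3 Pparg windows 1 held TCACCC and 2 held CCAAT. A match of letters is a description and does not show binding, and the arrays do not measure promoter use.

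Among uptake genes, Lpl encodes lipoprotein lipase, which frees fatty acids from circulating triglyceride. Its brighter probe set had signals of 4257, 4659, 4009 and 5196 (4530 ± 519), or 3.90 times the threshold, with no array under 3.10 times (adjusted p = 1.19e-12). The other probe set, with signals of 732, 689, 837 and 1099, was under the threshold on all 4 arrays. Gpihbp1, which holds the lipase on capillary walls, had 4197 ± 246 and was above background. Angptl4, an inhibitor of the lipase, had 7394 ± 251 and was above background as well. The lipase, its anchor and its inhibitor were thus all above background, while Cd36, a fatty acid receptor of fat cells, muscle and capillaries, was not by any of its 3 probe sets (881 ± 174 for the brightest, over the threshold on 1 array).

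Fabp5 encodes the epidermal fatty acid binding protein. Its 2 probe sets had signals of 52881, 47783, 44508 and 45202 (47593 ± 3796) and of 39574, 36315, 37278 and 35652 (37205 ± 1715). Every array was at least 28.2 times over its threshold in both, and the brighter probe set averaged 41.0 times (adjusted p = 2.05e-20). In contrast to the Scd1 probe sets, both Fabp5 probe sets had their highest signal on the same array, array 1.

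Fabp4, the fatty acid binding protein of fat cells, also made by macrophages and capillary endothelium, was close to the threshold. Its brightest probe set had signals of 2173, 1286, 1729 and 1469 (1664 ± 385), or 1.41 times the threshold and 1.16 times on the nearest array (adjusted p = 0.0237). The 3 other probe sets were not above background, at 940.0 ± 556, 483 ± 106 and 386 ± 353, and of their 12 array values 1 exceeded the threshold of its array, at 1769 on array 3. The all-array call held with each array left out in turn, but the test did not pass in every setting. With the 99th percentile as threshold the adjusted p was 0.295, without array 1 it was 0.204, without array 3 it was 0.0542, and the median of the 4 probe sets had a log2 ratio to the threshold of -0.76. The 2 brightest Fabp4 probe sets carry the same suffix as that of Srebf1, for transcripts of the same gene, and the brighter of the 2 without it was at 0.411 times the threshold. Of the other carriers, Fabp3, of heart and muscle, had 2695 ± 210 and Fabp7, of brain, had 2679.5 ± 339.6, both above background, whereas Fabp1, Fabp2 and Fabp6, of liver and gut, were over the threshold on 0 arrays.

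**Figure D2:**
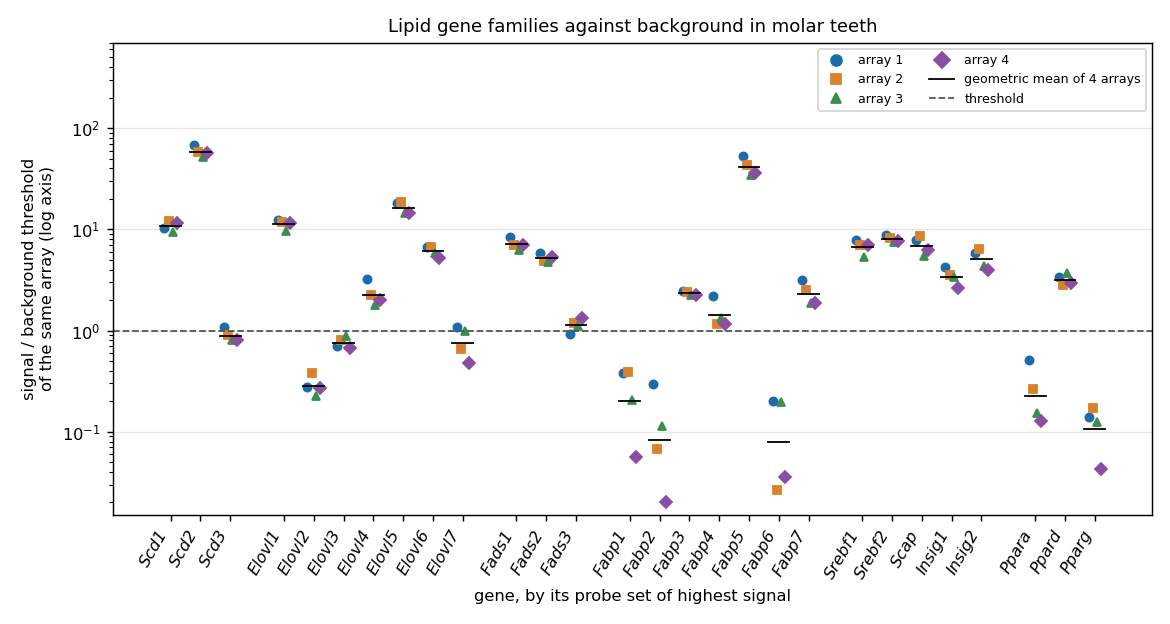
Ratio of signal to the background threshold of the same array, on a log axis, for the measured members of 6 lipid gene groups, each at its probe set of highest mean signal. Points are single arrays, black bars are geometric means of 4 arrays and the dashed line is the threshold. Scd2 (58.3) and Fabp5 (41.0) lie far over the line, Fabp4 (1.41) lies just over the line, and Pparg (0.106) lies below it on all arrays; ratios of different probe sets are not amounts of mRNA.

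Pparg encodes the nuclear receptor that drives fat cell formation. Its single probe set had signals of 139, 187, 162 and 54.2 (136 ± 57.6), which is 0.0428 to 0.170 times the threshold. Adipoq encodes adiponectin, a hormone made by mature fat cells, and had signals of 323, 22.6, 595 and 26.4 (242 ± 274). Both genes stayed below the threshold on all 4 arrays (limma adjusted p = 1 for each), and the Adipoq signals differed widely between arrays. Signals below background do not show that the genes were silent, and the SD of log2 signal was 0.81 for Pparg and 2.44 for Adipoq.

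A fat cell marker list held 12 measured genes, including the members Pparg, Adipoq and Fabp4. Of these, 3 passed (25.0%, beside 51.6% of all genes), with a median log2 signal of 8.79, and of the 9 that are not members 2 passed. The 3 were Fabp4, Lipe (hormone-sensitive lipase, 1592 ± 269) and Cebpa (a transcription factor of fat and other cells, 1962 ± 251), at 1.41, 1.36 and 1.68 times the threshold. Lep (leptin) had 65.9 ± 34.1, Cidec (a lipid droplet protein of fat cells) 105 ± 109, Ucp1 (the uncoupling protein of brown fat) 113 ± 54.0 and Adig (adipogenin) 427 ± 123, each over the threshold on 0 arrays. Retn (resistin) had 1422 ± 612 and passed on 2 arrays, and Slc2a4, the insulin-responsive glucose transporter, had 1183 ± 255 and passed on 2. The count of 12 was 1 with the 99th percentile as threshold, 5 with the 75th, and 1 when a gene was judged by the median of its probe sets, settings under which 48.2%, 65.3% and 39.3% of all genes passed.

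The lipid pathways were described by lists of genes by role, some of which hold members as well. Across 6 lipid pathway lists, 71 of 95 distinct measured genes outside the group were above background (74.7%, median log2 signal 11.71), beside 51.6% and 10.69 over all genes. In fatty acid synthesis, 8 of 11 passed with the members counted, and 7 of 10 without them. The main counts of the lists that follow also stand beside 51.6% of all genes. Acly (ATP citrate lyase) had 17833 ± 2583, Slc25a1 (the mitochondrial citrate carrier) 14572 ± 298, Me1 (malic enzyme, a source of NADPH) 12096 ± 1786 and Acaca (acetyl-CoA carboxylase 1) 4289 ± 389.5. Acacb, the carboxylase form tied to control of fatty acid oxidation, had 518 ± 271, Oxsm, a synthase of mitochondrial fatty acids, 561 ± 119 and Thrsp, a lipogenic protein of liver and fat, 504 ± 589, and none of these was above background.

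Elongation and desaturation genes passed for 13 of 18 with the members counted, and for 10 of 15 without them. Tecr, the reductase of the last elongation step, had 49160.4 ± 3936, Elovl5 and Elovl1 had 18902 ± 1053 and 13168 ± 1071, and the delta-5 and delta-6 desaturase genes Fads1 and Fads2 had 8258 ± 485 and 6026 ± 562. Elovl4, which makes very long chains for the skin barrier and retina, had 2639 ± 418 and passed. Elovl2 at 334 ± 63.2 and Elovl3, of sebaceous gland and brown fat, at 894 ± 187 did not. The family members that passed were Elovl1, Elovl4, Elovl5 and Elovl6, and those that did not were Elovl2, Elovl3 and Elovl7.

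Regulators passed for 10 of 14 with the members counted, and for 9 of 12 without them. Srebf2 had 9322 ± 501, Scap, the escort protein of SREBPs, 8038 ± 985, Mbtps1, the protease that first cuts them, 24237 ± 1583, and Insig1, which retains them in the endoplasmic reticulum, 3948 ± 485. Mlxipl, for the sugar-responsive factor ChREBP, had 806 ± 227 and Nr1h3, for the oxysterol receptor LXR alpha, 936 ± 170.4, and neither was above background. Of the Ppar genes, Ppard had 3741 ± 736 and passed, while Ppara had 291 ± 157 and, like Pparg, did not.

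Sterol synthesis genes were above background for 17 of 17 measured. Hmgcs1 (HMG-CoA synthase) had 21979.5 ± 747, Fdps (farnesyl diphosphate synthase) 10442 ± 1106 and Sqle (squalene epoxidase) 9980.0 ± 439. Dhcr7, the last step to cholesterol, was close to its threshold at 1577 ± 143, or 1.36 times. The count was 12 of 16 (46.9% of all genes) when probe sets with the suffixes _s_at, _x_at and _a_at were left out. It was 12 of 17 when a gene was judged by the median of its probe sets (39.3% of all genes).

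Uptake and carrier genes passed for 16 of 23 with the members counted, and for 13 of 20 without them. Of the 23 genes, 13 passed with the 99th percentile as threshold (48.2% of all genes). When a gene was judged by the median of its probe sets, 11 of the 23 passed (39.3% of all genes). Vldlr (the very low density lipoprotein receptor) had 26766 ± 3199, Dbi (an acyl-CoA binding protein) 11970.2 ± 1524, and the transport proteins Slc27a4 and Slc27a1 had 5308 ± 666 and 3811 ± 373. Acsl6 had 400.5 ± 118 and Slc27a2, a transport protein of liver and kidney, 147 ± 128, and both were over the threshold on 0 arrays. Storage and release genes passed for 15 of 21. Lpin2, a phosphatidate phosphatase, had 9718 ± 1003, Bscl2 (seipin, of droplet assembly) 9006 ± 1434 and Plin2, the droplet coat protein found in most cells, 8176 ± 843. Dgat1 and Dgat2, which make triglyceride, had 3406 ± 296 and 3810.1 ± 405, and Pnpla2, which starts its breakdown, had 3358 ± 187. Plin4 at 255 ± 181, Plin5 at 359 ± 181, Cidea at 75.3 ± 26.7 and Cideb at 959 ± 157, all droplet proteins, were not above background. Plin1 and Cfd, further fat cell genes, and Scd4 were not analysed here.

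**Figure D3:**
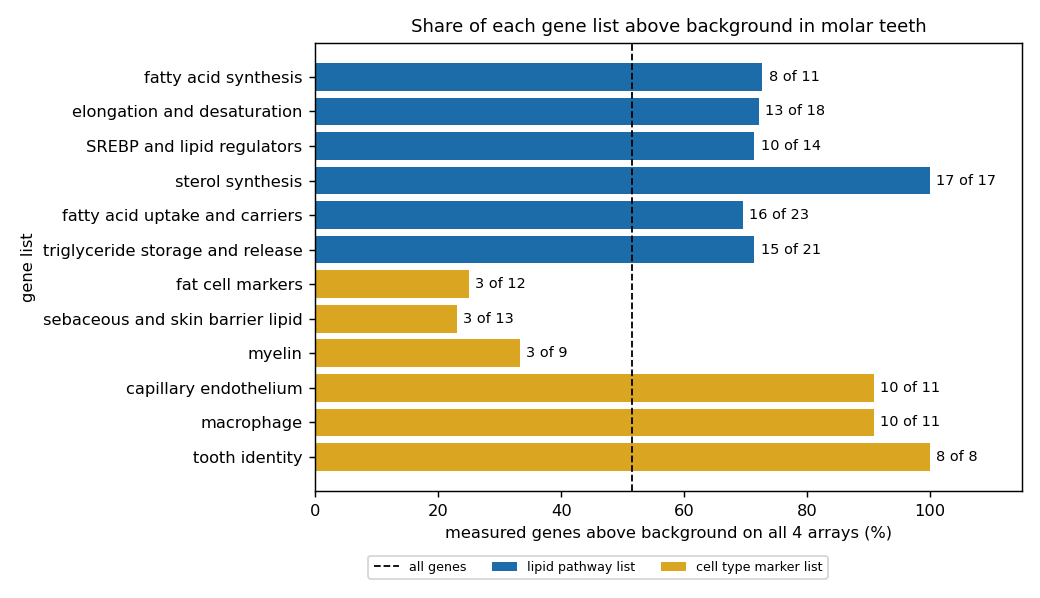
Percentage of the measured genes of each list that were above background on all 4 arrays, with counts at the bar ends; blue bars are lipid pathway lists, yellow bars are cell type marker lists, and the dashed line is the share of all genes (51.6%). The 6 lipid pathway bars lie between 69.6% and 100%, and the fat cell, sebaceous and skin barrier, and myelin bars lie between 23.1% and 33.3%. Members of the group are counted in the lists that hold them.

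Markers of other cell types known to express members differed from list to list. Each count by the main rule stands beside 51.6% of all genes. Capillary endothelium and macrophages, which make Fabp4, passed for 10 of 11 genes each. The endothelial list holds Fabp4 itself and passed for 9 of 10 genes without it. Genes that passed included Egfl7 at 7975 ± 377, Esam at 4769 ± 722, Csf1r at 20413 ± 2425 and Lyz2 at 6475 ± 814. Cd36 and, for macrophages, Fcgr1 (500.4 ± 244) were the genes that did not pass. Sebaceous and skin barrier lipid genes, tied to Scd1, Scd3 and Elovl3, passed for 3 of 13, with Abhd5 at 3394 ± 481, Elovl4 and Ugcg (ceramide glucosylation, 2365 ± 475) the ones that did, while the melanocortin receptor gene Mc5r had 902 ± 143, Abca12 967 ± 212 and Alox12b 157 ± 123. Myelin genes, whose sheath lipids use Scd2 and Fasn, passed for 3 of 9, with Pmp22 at 29524 ± 1595, Mbp at 4957 ± 881 and Sox10 at 1968 ± 530.4, while Ugt8a, which makes the myelin galactolipids, had 99.8 ± 26.4, Egr2 169 ± 128 and Fa2h 1301 ± 566. With the 75th percentile as threshold the sebaceous and skin barrier count was 11 of 13 and the myelin count 5 of 9, beside 65.3% of all genes. The part of any of these cell types in the members' signals was not tested, since the RNA was not sorted by cell type.

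Over all probe sets, the spread between arrays fell with brightness above the dimmest classes. The median SD of log2 signal was 0.79 at percentiles 0 to 5 of brightness, 1.08 at 15 to 20 and 0.12 at 95 to 100. Over the 13 member probe sets above background the SD of log2 signal ranged from 0.028 to 0.33, and over the 7 not above background from 0.30 to 2.44. The steadiest was the dimmest Scd2 probe set, with signals of 12309, 12331, 12832 and 12552, an SD of 0.028 beside a median of 0.13 among probe sets of like brightness (within 2.5 percentiles). The most variable was Adipoq, at 2.44 beside 1.02. Of the 20 probe sets, 10 had an SD under the median of probe sets of like brightness. The median log2 signal of the 10 genes was 12.77, 12.81, 12.69 and 12.83 on arrays 1 to 4, and 8 of them exceeded the threshold on each array.

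**Figure D4:**
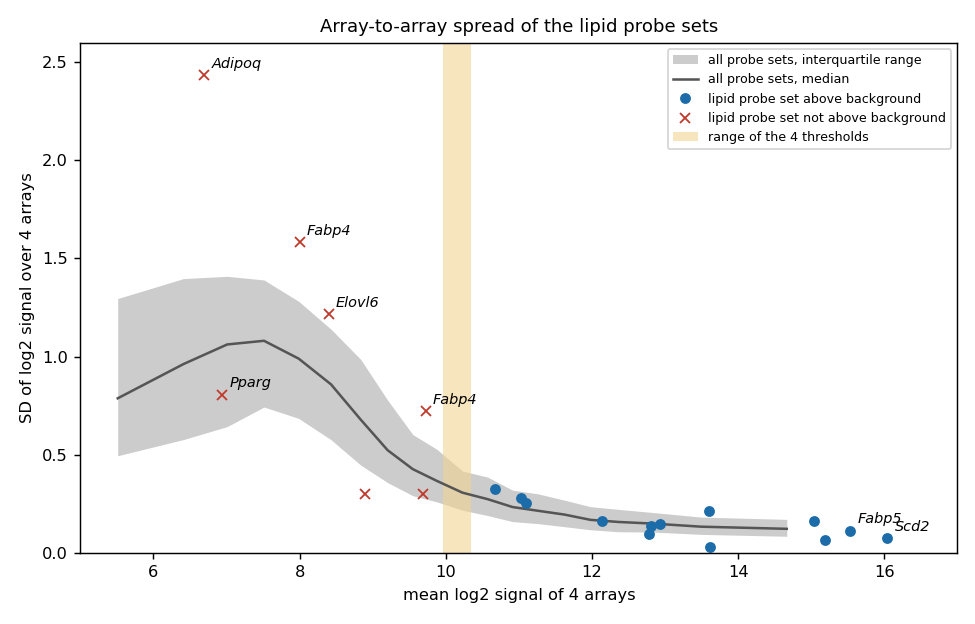
SD of log2 signal over the 4 arrays against mean log2 signal for the 20 lipid probe sets, with blue circles for those above background and red crosses for those not. The grey line and band give the median and the 25th to 75th percentile of all probe sets in 20 classes of brightness, and the yellow band gives the 4 thresholds. The 13 blue points lie at SDs of 0.028 to 0.33, and Adipoq stands at 2.44.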

How the data were processed

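Gene expression was measured on 4 1-colour arrays of 1 RNA pool. The authors deposited 1 signal intensity per probe set and array, made with MAS5 per the submitters' processing notes; the sources used here do not give its version, settings, detection calls or genome build. The mean intensity without the lowest and highest 2% of the deposited values was 2500.01 on each array, so no further scaling was done, and values were taken to log2 with no pseudocount. Depth does not exist for arrays, and their number limits the precision.

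Probe sets naming several genes (932) or none (9211, controls included) were not used for genes, and gene IDs of 34754 of the 34958 used matched the RefSeq table (GRCm38.p6), as did all 10 members. Each gene was shown by its brightest probe set (mean log2 signal), and passed if any probe set passed. The test was limma 3.58.1 (R 4.3.3) with a mean-variance trend on log2(signal / threshold), intercept only and one-sided. Its p-values were Benjamini-Hochberg adjusted over 18194 genes, with 0.05 as limit. Rule and test were also run on simulated data. Background genes there were drawn from genes well under the threshold, so that run cannot show how often false calls arise near it. Promoter letters came from RefSeq windows, cut at the transcript start.

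Other settings were the 75th and the 99th percentile, calls on 3 of 4 arrays, limma calls, quantile normalisation, probe sets without the suffixes _s_at, _x_at and _a_at, the median probe set, and leaving out each array. The members and lists were chosen with earlier results of these data known. Named were all members, genes listed by role, and per list the 2 brightest above background and 2 not above it in alphabetical order; other names were chosen after their values were seen. Replicate numbers came from titles.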

Additional observations from a re-analysis of the deposited data

Results flagged for a closer look

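Among 33 sets of 4 array values (20 member probe sets, and the medians of the 10 genes and of 12 lists), 1 had an array apart from the other 3 by a gap test, where chance gives about 1 in 20 (1.65 of 33). The median log2 signal of the sterol synthesis list was 11.56 on array 4, against 11.80 to 11.84 on the other arrays. The 17 genes of that list were above background on all 4 arrays.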

How the results depend on the processing

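No paired analysis was possible because all 4 arrays form 1 group. Of the results recomputed under each alternative, 236 kept their direction and side of the threshold or stayed within 1.5 times, 8 moved, 3 weakened and 2 reversed. The member count was 6 of 8 to 8 of 10, while the share of all genes ran from 39.3% (median probe set) to 65.3% (75th percentile), and Fabp4 was the member whose call changed; without suffixed probe sets Srebf1 and Pparg had no probe set left. The log2 ratio of Fabp4 to the threshold was 0.24 with the 99th percentile, -1.27 without suffixed probe sets and -0.76 by the median probe set, and 0.29 to 0.59 with arrays left out. The members' median log2 signal was 11.71 by the median probe set. Counts that moved were those of fat cell markers (1 with the 99th percentile, 5 with the 75th, 1 by the median probe set), myelin (5 with the 75th percentile, 1 of 5 without suffixed probe sets), sebaceous and skin barrier lipid (11 with the 75th percentile) and capillary endothelium (6 of 8 without suffixed probe sets, where fewer genes were tested). The cause was not tested for the others. Precision was lowest near and below background, where the SD of member probe sets not above it was 0.30 to 2.44 on the log2 scale.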
